A study of Drosophila melanogaster with 14 samples.

Results

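The cytochrome P450 family of Drosophila was examined in flies carrying sesB1, a point mutation of the X-linked gene for the main ADP/ATP translocase of the mitochondrion. Members were all probesets annotated with a single gene symbol made of Cyp, a family number, a subfamily in lower-case letters and a gene number. This rule, which used no measured value, gave 83 probesets of 81 genes, out of 18769 probesets tested and 11982 genes with a probeset of their own. Of these, 6 had a subfamily of more than 1 letter, such as Cyp4ac1. A further 2 P450 probesets were annotated with several symbols and were left out. Total RNA of whole flies was hybridized to Affymetrix Drosophila 2.0 arrays. There were 14 arrays, with 3 for each sex of the wild type and 4 for each sex of the mutant. The mutation had been crossed into Canton S and into Oregon R, and the mutant flies were the F1 of a Canton S sesB1 mother and an Oregon R sesB1 father. Wild-type flies were the F1 of the same strains without the mutation, so both genotypes were hybrids, and the males took their X chromosome from the Canton S side. Females were virgins, and flies were 2 days old by the sample labels and a day younger by the description of the series. By the methods, each RNA came from a pool of flies. Since sesB1 is a point mutation, the level of its transcript does not check the genotype, and sesB is not described here.

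Cytochrome P450 enzymes are haem monooxygenases that insert 1 atom of molecular oxygen into a substrate. Most sit in the endoplasmic reticulum and take electrons from NADPH through P450 reductase or cytochrome b5, while members of the mitochondrial clan lie in the mitochondrion and are fed by ferredoxin. In insects they inactivate plant toxins and insecticides, mainly in midgut, Malpighian tubule and fat body, and they make and degrade ecdysteroids and make the hydrocarbons of the cuticle. By family number, 37 member probesets belonged to clan 3 (families such as Cyp6, Cyp9 and Cyp28), 32 to clan 4 (Cyp4, Cyp312, Cyp313 and others) and 9, of 8 genes, to the mitochondrial clan (Cyp12, Cyp49 and Cyp301). The other 5 probesets, of 4 genes, were those of Cyp18a1, Cyp303a1, Cyp304a1 and Cyp305a1.

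The deposited values are log2 signals centred on the median of each probeset over the 14 arrays. A value of 0 is therefore the middle of the probeset's own range, values of different genes cannot be compared, and the brightness over background is not known. Arrays of the same group correlated over all probesets at r from 0.855 to 0.982, the lowest within sesB1 females. The sesB1 female array 3 held the highest of the 4 values for 53 of the 83 P450 probesets, and for 31% of all probesets. Wild-type male array 2 held more of the transcripts typical of females. Over 433 probesets whose log2 level was higher in wild-type females by 3 or more, its median was -1.106, against -1.627 and -1.622 in the other wild-type male arrays. In sesB1 female arrays 4 and 2 the median of the 1236 probesets higher in wild-type males by the same margin was -2.002 and -2.189, against -2.281 and -2.308 in arrays 1 and 3. Over 5 genes that mark sex, such as those of the yolk proteins, the median of sesB1 male array 4 was -2.40, against -6.52 to -5.73 in the other sesB1 male arrays. For the 40 probesets named by rule, calls between genotypes lost when one of these arrays was left out are stated beside the result. In RNA of whole flies, fewer cells of a type and less RNA per cell cannot be told apart.

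P450 transcripts were more often higher than lower in sesB1 flies of both sexes. In females, 45 of the 83 probesets (54.2%) were higher in sesB1 than in wild-type flies at an adjusted p under 0.05 by limma, compared with 13.4% of all probesets, and 9 (10.8%) were lower, compared with 18.9% of all probesets. The median log2 fold change over the 83 probesets was 0.39, and over all probesets it was 0.0051. A change of at least 2-fold was passed by 21 upwards (25.3%, against 3.05% of all probesets) and by 1 downwards, Cyp6a19 (against 2.42%). Without sesB1 female array 3, 19 were at least 2-fold higher. After quantile normalization of the female arrays, 28 were higher, against 8.53% of all probesets, and 3 lower, against 8.78%. By 2-fold, 18 were then higher (2.37% of all probesets) and 1 lower, Cyp6a2 (0.682%). In males, 37 of the 83 (44.6%) were higher, against 11.1% of all probesets, and 14 (16.9%) were lower, against 10.8%. The median log2 fold change was 0.18 in males, against -0.011 over all probesets. In that sex 10 were at least 2-fold higher, against 1.38% of all probesets, and 2, Cyp6a2 and Cyp312a1, were at least 2-fold lower, against 0.741%. Without wild-type male array 2, 12 were at least 2-fold higher and 2 were at least 2-fold lower. After quantile normalization of the male arrays the counts were again 37 higher, against 10.5% of all probesets, and 14 lower, against 9.91%. By 2-fold, 12 were then higher (1.43% of all probesets) and 1 lower, Cyp6a2 (0.48%).

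The same members tended to move in both sexes, which were hybridized to separate arrays. Of the 83 probesets, 32 were higher in both sexes and 4 were lower in both. The share of all probesets that passed in both sexes was not counted, so the agreement is not shown to be particular to the family. The 10 that reached 2-fold in males were also 2-fold higher in females: Cyp4e3, Cyp6a8, Cyp6a23, Cyp309a1, Cyp4p1, Cyp28a5, Cyp9b1, Cyp6d5, Cyp12c1 and Cyp9b2. Passing in opposite directions was seen for 3, with Cyp313a1 and Cyp4ac1 higher in females and lower in males and Cyp6a22 lower in females and higher in males. In neither sex did 17 probesets pass. Across the 83 probesets, the female and male log2 fold changes had a Pearson r of 0.82 and a Spearman rho of 0.73, given as a description since genes are not independent replicates.

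**Figure D1:**
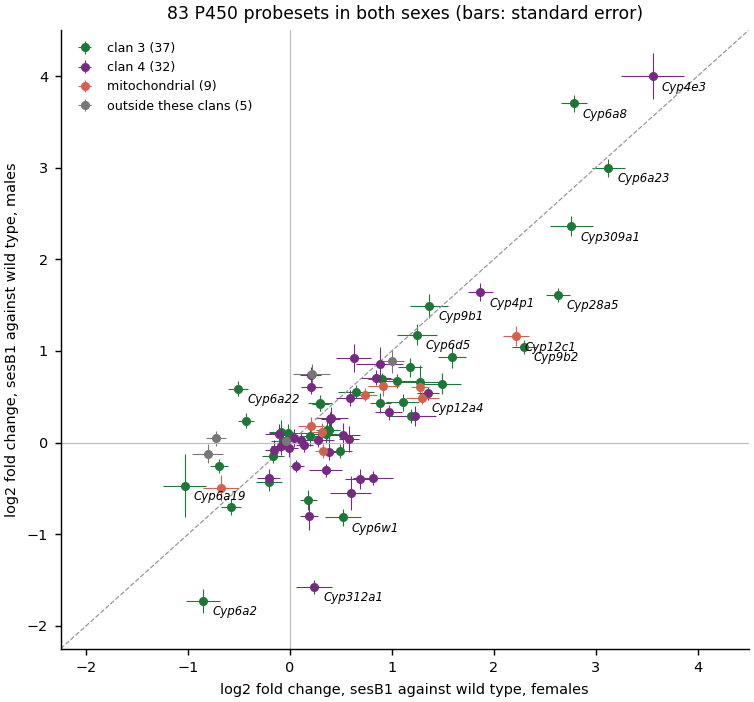
Log2 fold change of sesB1 against wild type for the 83 P450 probesets in females (x axis) and in males (y axis), coloured by clan, with bars of 1 standard error and a dashed line of equal change. Points at the upper right are the members raised in both sexes, up to 3.56 in females and 4.00 in males for Cyp4e3, and Cyp312a1 and Cyp6a2 lie lowest on the male axis at -1.58 and -1.73.

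Each clan held raised members, and their shares differed. Over all probesets, 13.4% rose and 18.9% fell in females, and 11.1% rose and 10.8% fell in males. In clan 3, 21 of 37 probesets rose and 6 fell in females, with 0.49 as the median log2 fold change, and 20 rose and 6 fell in males, with a median of 0.42. In clan 4, 16 of 32 rose and 0 fell in females (median 0.39), and 10 rose and 7 fell in males (median 0.04). In the mitochondrial clan, 7 of 9 probesets rose and 1 fell in females (median 0.73), and 5 rose and 1 fell in males (median 0.49). Of the 5 probesets outside these clans, 1 rose and 2 fell in females, and 2 rose and 0 fell in males. By family, all 5 Cyp9 probesets were higher in females and 4 of the 5 in males. Both directions were found among the 23 Cyp6 probesets, of which 11 rose and 6 fell in females and 12 rose and 5 fell in males. Among the 22 Cyp4 probesets 13 rose and 0 fell in females, and 10 rose and 5 fell in males. Of 15 probesets of genes on the X chromosome, 4 rose and 3 fell in females, and 3 rose and 5 fell in males. The 3 that fell in females are close to the share of 18.9% over all probesets. Differences between clans, families or chromosomes were not tested.

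**Figure D2:**
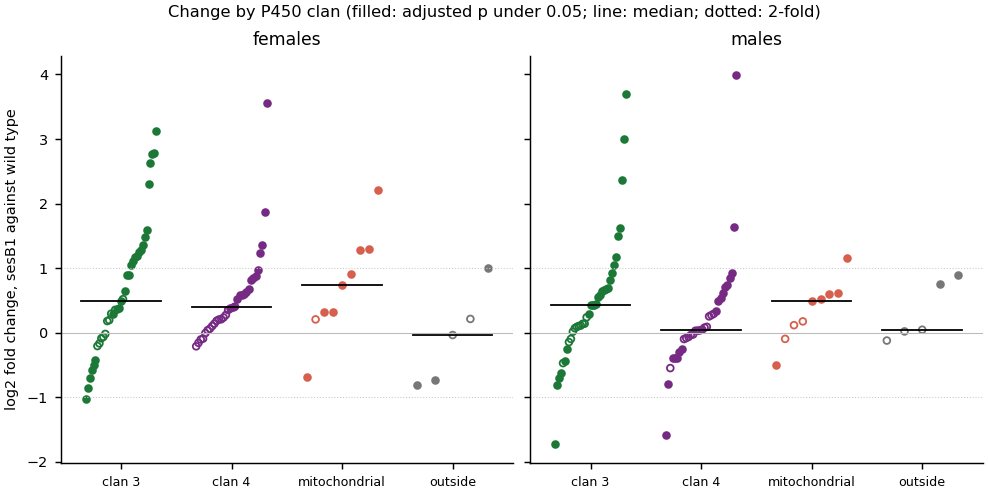
Log2 fold change of sesB1 against wild type for each P450 probeset in females (left) and males (right), ordered within its clan, where "outside" is the 5 probesets outside the 3 clans named here. Filled points passed an adjusted p of 0.05, black lines are medians and dotted lines mark 2-fold, and all 3 named clans had members above the upper dotted line in both sexes.

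Among P450 genes linked to insecticides or to induction by phenobarbital, 10 of 11 had a probeset of their own. Of these, 6 rose and 2 fell in females (13.4% and 18.9% of all probesets), and 5 rose and 3 fell in males (11.1% and 10.8%). Their median log2 fold change was 0.58 in females and 0.22 in males. Cyp6a8, a phenobarbital-inducible enzyme, was the most raised of them. Its centred log2 values were -2.62, -2.44 and -2.73 in wild-type females and -0.05, 0.38, 0.35 and 0.05 in sesB1 females. In wild-type males they were -2.55, -2.73 and -2.69, and in sesB1 males 1.20, 1.08, 0.82 and 1.07. Wild-type flies of both sexes were thus alike and low, and each sesB1 array lay more than 2 log2 units above them. Cyp6a8 was 6.88-fold higher in sesB1 females (2.78 ± 0.13 SE in log2, limma adjusted p = 2.83e-06) and 13-fold higher in sesB1 males (3.70 ± 0.10 SE in log2, limma adjusted p = 1.01e-08).

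Cyp6a2, which oxidizes DDT and other insecticides and is also induced by phenobarbital, went the other way. It stood at 1.85, 1.83 and 1.45 in wild-type males and at 0.21, -0.11, -0.23 and 0.06 in sesB1 males. In females it stood at 0.11, 0.67 and -0.06 in wild-type flies and at -0.52, -0.76, -0.45 and -0.72 in sesB1 flies. The groups did not overlap in either sex, and wild-type males were the highest of the 4 groups. It was 3.32-fold lower in sesB1 males (-1.73 ± 0.13 SE in log2, limma adjusted p = 9.96e-06) and 1.81-fold lower in sesB1 females (-0.85 ± 0.17 SE in log2, limma adjusted p = 0.00385).

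Cyp6d5, another gene induced by phenobarbital, stood at -1.23, -0.64 and -1.30 in wild-type females and 0.14, 0.16, 0.59 and -0.14 in sesB1 females. Male values were -0.86, -0.64 and -0.98 in wild-type and 0.53, 0.25, 0.16 and 0.46. All sesB1 arrays were above all wild-type arrays of their sex, by 2.37-fold in females (1.24 ± 0.20 SE in log2, limma adjusted p = 0.00135) and 2.26-fold in males (1.18 ± 0.11 SE in log2, limma adjusted p = 5.42e-05). Cyp6g1, known for resistance to DDT and neonicotinoids, stood at -1.66, -0.83 and -1.84 in wild-type females and at -0.51, -0.23, 0.09 and -0.38 in sesB1 females, which did not overlap. It was 2.27-fold higher in females (adjusted p = 0.00412 by limma) but did not pass there after quantile normalization (0.85 in log2, limma adjusted p = 0.0602). In males it was 1.22-fold higher (adjusted p = 0.0196 by limma), a call lost without wild-type male array 2 (0.23 in log2) or sesB1 male array 4 (0.27 in log2). Cyp28d1, which acts on nicotine, rose 1.57-fold in females and 1.47-fold in males (adjusted p = 0.0199 and 0.000356 by limma). The female call was lost without wild-type female array 1 or 3 (0.50 and 0.65 in log2) and after quantile normalization (0.48). Cyp6w1, raised in DDT-resistant strains, fell in males (-0.82 in log2, limma adjusted p = 0.00016) and had a value of 0.52 in females (adjusted p = 0.0531 by limma), which passed without wild-type female array 2 or sesB1 female array 1 or 4 (0.68, 0.60 and 0.61). Cyp6g2, which gives resistance when overexpressed, rose 1.31-fold in females (adjusted p = 0.0187 by limma) and did not pass in males (0.14, adjusted p = 0.6 by limma). Its female call was lost without wild-type female array 2 or 3 or sesB1 female array 1 or 2 (0.34 to 0.38 in log2) and after quantile normalization (0.27). Cyp6a9 passed in neither sex (-0.02 in females and 0.10 in males).

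The member with the largest fold change was Cyp4e3, a clan 4 gene linked to permethrin tolerance in the Malpighian tubule. It stood at -3.14, -2.83 and -3.04 in wild-type females and at 0.07, 0.94, 1.29 and -0.07 in sesB1 females. Male values were -2.71, -2.94 and -2.21 in wild-type flies and at 1.72, 1.22, 0.76 and 1.81 in sesB1 flies. The sesB1 arrays varied by more than 1 log2 unit among themselves in each sex and all lay far above the wild-type arrays. The change was 11.8-fold in females (3.56 ± 0.31 SE in log2, limma adjusted p = 7.69e-05) and 16-fold in males (4.00 ± 0.25 SE in log2, limma adjusted p = 3.38e-06).

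Cyp6a23, of clan 3, had values of -3.00, -2.84 and -2.89 in wild-type females and 0.09, 0.19, 0.66 and -0.09 in sesB1 females. In males its values were -2.57, -2.34 and -2.43 in wild-type flies and 0.75, 0.38, 0.52 and 0.55 in sesB1 flies. The 2 genotypes were widely separated in both sexes. It was 8.72-fold higher in sesB1 females (3.12 ± 0.16 SE in log2, limma adjusted p = 5.21e-06) and 7.99-fold higher in sesB1 males (3.00 ± 0.10 SE in log2, limma adjusted p = 5.1e-08).

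Cyp309a1, also of clan 3, stood at -2.82, -2.16 and -2.69 in wild-type females and 0.11, 0.10, 0.70 and -0.10 in sesB1 females. In males it stood at -1.09, -1.25 and -0.84 in wild-type flies and at 1.43, 1.38, 1.14 and 1.26 in sesB1 flies. Males were above females in each genotype, and the sesB1 arrays were above the wild-type arrays of their sex. The difference was 6.78-fold in females (2.76 ± 0.21 SE in log2, limma adjusted p = 4.56e-05) and 5.14-fold in males (2.36 ± 0.11 SE in log2, limma adjusted p = 5.14e-07). Cyp309a2, its neighbour on arm 2L, stood at -1.89, -1.56 and -1.71 in wild-type females and at -0.40, -0.01, 0.11 and -0.23 in sesB1 females. In males it stood at 0.01, -0.05 and 0.10 in wild-type flies and 1.19, 1.05, 0.92 and 0.65 in sesB1 flies. Males were again above females in each genotype, and the genotypes did not overlap in either sex. Its rise was 3.01-fold in females (adjusted p = 7.46e-05 by limma) and 1.91-fold in males (adjusted p = 0.000326 by limma).

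Cyp28a5, of clan 3, had values of -2.50, -2.32 and -2.60 in wild-type females and 0.19, 0.06, 0.40 and -0.03 in sesB1 females. In males they were -1.58, -1.39 and -1.50 in wild-type flies and 0.20, 0.03, 0.08 and 0.18 in sesB1 flies. Wild-type females were lowest, and the sesB1 flies of both sexes lay together near 0. The change was 6.18-fold in females (2.63 ± 0.12 SE in log2, limma adjusted p = 2.57e-06) and 3.06-fold in males (1.62 ± 0.08 SE in log2, limma adjusted p = 5.55e-07). Cyp9b2 had the same order of groups. It stood at -2.11, -1.85 and -2.23 in wild-type females, against 0.23, 0.45, 0.20 and 0.06 in sesB1 females. Male values were -0.99, -1.05 and -0.91, against 0.12, -0.02, 0.02 and 0.13. It was 4.92-fold higher in sesB1 females (2.30 ± 0.12 SE in log2, limma adjusted p = 5.67e-06) and 2.06-fold higher in sesB1 males (1.04 ± 0.07 SE in log2, limma adjusted p = 6.36e-06).

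Cyp9b1, the neighbour of Cyp9b2 on arm 2R, stood at -1.25, -1.01 and -1.13 in wild-type females and at -0.06, 0.17, 0.77 and 0.06 in sesB1 females. In males its values were -0.68, -0.84 and -0.49, and 1.10, 0.75, 0.57 and 0.87. The genotypes did not overlap in either sex. The rise was 2.57-fold in females (1.36 ± 0.18 SE in log2, limma adjusted p = 0.000592) and 2.81-fold in males (1.49 ± 0.13 SE in log2, limma adjusted p = 2.63e-05). The female call was lost after quantile normalization of all 14 arrays (1.1 in log2, limma adjusted p = 0.0753). Cyp4p1, of clan 4, stood at -1.88, -1.68 and -1.67 in wild-type females and at 0.12, 0.13, 0.37 and -0.12 in sesB1 females. In males it stood at -0.87, -0.78 and -0.82 and at 1.02, 0.64, 0.70 and 0.90. It rose 3.65-fold in females (1.87 ± 0.12 SE in log2, limma adjusted p = 1.73e-05) and 3.12-fold in males (1.64 ± 0.10 SE in log2, limma adjusted p = 2.21e-06), again with no overlap.

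Cyp6a18, on arm 3R, was among the 10 most raised in females. It stood at -1.50, -1.35 and -1.23 in wild-type females and at -0.09, -0.06, 0.70 and -0.04 in sesB1 females, where array 3 stood apart. It was 2.81-fold higher (1.49 ± 0.19 SE in log2, limma adjusted p = 0.000453), with a log2 fold change of 1.30 without that array. This call was lost after quantile normalization of all 14 arrays (1.12 in log2, limma adjusted p = 0.0661). In males its values of 0.10, -0.09 and 0.04 in wild-type flies and 0.94, 0.66, 0.38 and 0.66 in sesB1 flies gave a rise of 1.56-fold (adjusted p = 0.00316 by limma).

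Of the 21 members at least 2-fold higher in females, 20 also passed upwards in males, with or without that fold. Of all probesets, 11.1% passed upwards in males. The share among all probesets 2-fold higher in females was not counted, so this agreement is not shown to be particular to the family. The exception among the 21 was Cyp4d1, on X, which stood at -0.49, -0.47 and -0.70 in wild-type females and at 0.63, 0.67, 1.22 and 0.19 in sesB1 females. In males its values of 0.00, -0.20 and -0.41 and of 0.11, -0.02, 0.00 and 0.27 overlapped (0.29 in log2, limma adjusted p = 0.0863). Cyp4d2, of the same subfamily, stood at -1.39, -1.43 and -1.47 in wild-type females, against -0.23, -0.01, 0.17 and -0.24 in sesB1 females. Its male values were 0.01, -0.07 and 0.05, against 0.62, 0.59, 0.50 and 0.42, with the genotypes apart in both sexes.

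Cyp9f2, another of the Cyp9 family, stood at -0.91, -0.66 and -0.79 in wild-type females and at 0.26, 0.29, 0.75 and -0.02 in sesB1 females, 2.15-fold higher (limma adjusted p = 0.000913). Its male values of -0.30, -0.18 and -0.17 and of 0.20, 0.02, 0.28 and 0.38 gave 1.36-fold (limma adjusted p = 0.00631). Cyp6d4, a relative of Cyp6d5 on the same arm, 3R, rose 2.07-fold in females (limma adjusted p = 0.00227) and 1.59-fold in males (limma adjusted p = 0.00018). For both genes sesB1 female array 3 was the highest of its group. Just under 2-fold in females were Cyp304a1 (1.998-fold), Cyp4d8 (1.96-fold) and Cyp9c1 (1.86-fold), which also passed upwards in males. Cyp4e1 and Cyp4d14 rose in females by 0.84 and 0.63 in log2, and in males by 0.71 and 0.92. Cyp305a1 rose in males alone by the threshold, from -0.10, 0.26 and -0.04 to 0.80, 0.60, 0.91 and 0.84 (0.75 ± 0.11 SE in log2, limma adjusted p = 0.000636), and overlapped in females (0.21 in log2, limma adjusted p = 0.456).

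**Figure D3:**
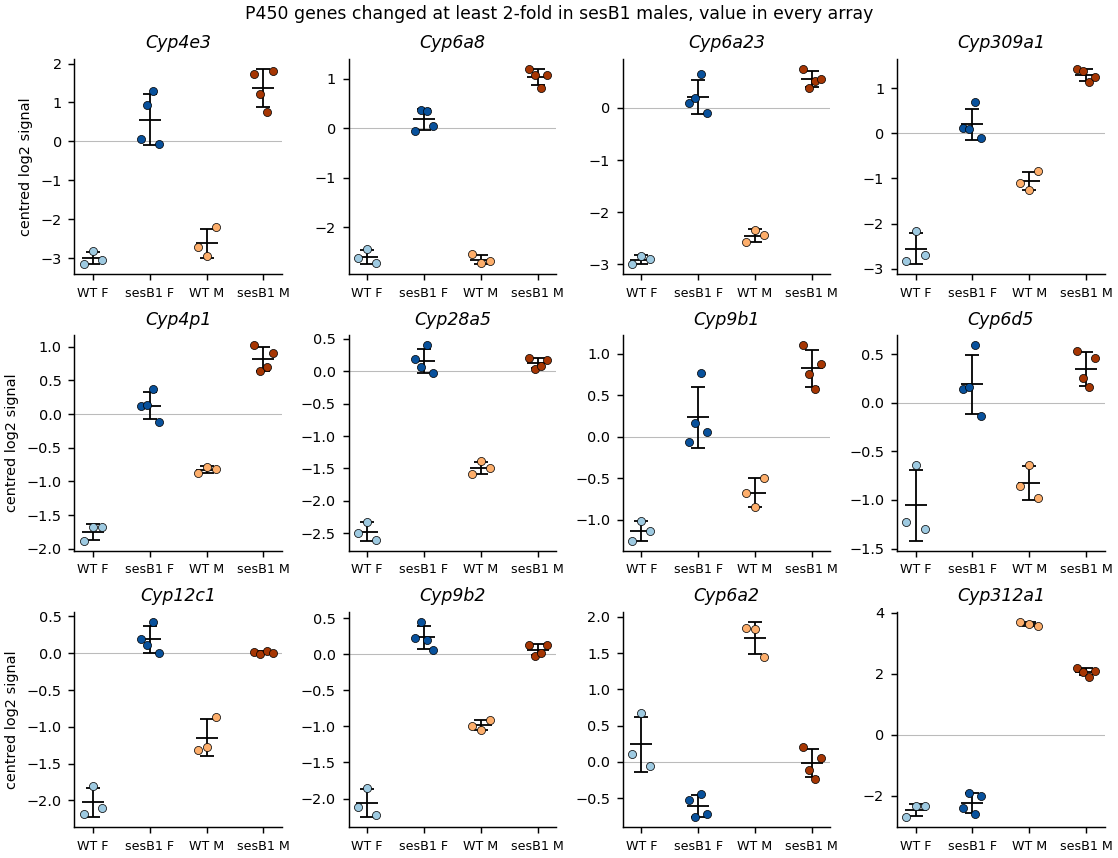
Centred log2 signal in every array for the 12 P450 genes changed at least 2-fold in sesB1 males, for wild-type (WT) and sesB1 females (F) and males (M), with a bar at the mean and whiskers of 1 SD. In the first 10 panels the 4 sesB1 points lie above the 3 wild-type points of their sex, while in the last 2 panels, Cyp6a2 and Cyp312a1, the sesB1 males lie below the wild-type males.

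Every gene of the mitochondrial clan with a probeset of its own was examined. Cyp12c1 was the most raised, with values of -2.18, -1.80 and -2.10 in wild-type females and 0.20, 0.11, 0.43 and 0.01 in sesB1 females. In males its values were -1.32, -1.27 and -0.86, and 0.02, -0.01, 0.03 and 0.01. As for Cyp28a5, sesB1 flies of both sexes were alike and wild-type females were lowest. It was 4.64-fold higher in sesB1 females (2.21 ± 0.13 SE in log2, limma adjusted p = 8.96e-06) and 2.24-fold higher in sesB1 males (1.16 ± 0.11 SE in log2, limma adjusted p = 4.12e-05). Cyp12a4, whose overexpression gives resistance to lufenuron, and its neighbour Cyp12a5 rose 2.46-fold and 2.42-fold in females (adjusted p = 0.000414 and 2.29e-05 by limma). In males they rose 1.40-fold and 1.52-fold (adjusted p = 0.000527 and 0.000153 by limma).

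The 2 probesets of Cyp12e1 passed in both sexes. Their log2 fold changes were 0.92 and 0.73 in females and 0.61 and 0.52 in males (adjusted p from 0.000421 to 0.00186 by limma). The female change of 0.92 did not pass after quantile normalization of all 14 arrays (0.44, adjusted p = 0.0685 by limma). Cyp12d1-d, a gene induced by DDT and phenobarbital, was the only one of the clan that fell. Its values were 0.39, 0.85 and 0.10 in wild-type females, 0.01, -0.43, -0.15 and -0.36 in sesB1 females, 0.14, 0.65 and 0.04 in wild-type males and -0.01, -0.35, -0.24 and -0.28 in sesB1 males. The genotypes did not overlap but came close in both sexes, and array 2 was the highest of the wild-type arrays. The log2 fold changes were -0.68 in females (adjusted p = 0.0158 by limma) and -0.50 in males (adjusted p = 0.0313 by limma). The female call was lost without sesB1 female arrays 2 and 4 together (-0.52, adjusted p = 0.0844 by limma) and by the methods' t-test after adjustment. The male call was lost without wild-type male array 2 (-0.31) and without sesB1 male array 2, 3 or 4 (-0.49 to -0.46). A nearly identical copy, Cyp12d1-p, shares a probeset with it that was left out. Cyp12b2 rose in females (0.32, adjusted p = 0.00888 by limma), with a value of -0.03 after quantile normalization, and Cyp301a1, which acts in formation of the adult cuticle, rose there as well (0.31, adjusted p = 0.0379 by limma). The Cyp301a1 call was lost when any array other than sesB1 female array 4 was left out (0.26 to 0.35) and after quantile normalization (0.06). Neither passed in males (-0.10 and 0.12), and Cyp49a1 passed in neither sex (0.21 in females and 0.18 in males).

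Of 8 P450 genes listed for a part in hydrocarbons, hormones, cuticle or behaviour, 5 rose and 1 fell in females, and 3 rose and 1 fell in males. Over all probesets the shares were 13.4% and 18.9% in females and 11.1% and 10.8% in males. Cyp18a1, which inactivates ecdysteroids, fell in females by both of its probesets. The values of 1 probeset were 1.22, 1.20 and 1.51 in wild-type females and 0.53, 0.67, 0.11 and 0.69 in sesB1 females, and those of the other were 1.20, 1.26 and 1.02 and then 0.44, 0.27, 0.45 and 0.58. Neither set of values overlapped between genotypes. The log2 fold changes were -0.81 and -0.73 (adjusted p = 0.00306 and 0.000603 by limma), and after quantile normalization both were smaller and did not pass (-0.41 and -0.38, adjusted p = 0.177 and 0.0534 by limma). In males the values were -0.12 and 0.05, and neither passed.

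Cyp4g1, the decarbonylase that forms the hydrocarbons of the cuticle, did not pass in females (0.06 in log2, limma adjusted p = 0.596). In males it fell 1.19-fold (adjusted p = 0.0182 by limma), a call lost without wild-type male array 1 or 2 (-0.24 and -0.25 in log2). Cyp4g15, its relative expressed in the nervous system, rose 1.84-fold in females and 1.81-fold in males (adjusted p = 0.0159 and 0.00797 by limma). The female call was lost without wild-type female array 1 or 3 (0.82 and 0.80 in log2) and after quantile normalization (0.65). Cyp6a20, known for its part in male aggression, rose 1.85-fold in females (adjusted p = 0.000367 by limma) and 1.34-fold in males (adjusted p = 0.0179 by limma). Its male call was lost without wild-type male array 1 or 3 or sesB1 male array 3 (0.38 to 0.41 in log2). Cyp6a13 rose in females (1.18 in log2, limma adjusted p = 0.000154) and in males (0.82, adjusted p = 0.000335 by limma). Cyp303a1, needed for sensory bristles, had values of -0.04 and 0.02 and passed in neither sex.

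Cyp6a19, the only member that fell 2-fold in females, stood at 2.96, 2.87 and 3.15 in wild-type females and at 1.83, 2.12, 1.43 and 2.46 in sesB1 females. In males it stood at -3.00, -1.43 and -2.98 in wild-type flies and at -2.83, -3.18, -3.25 and -2.51 in sesB1 flies. The high wild-type male value is that of array 2, the array with more transcripts typical of females. The female groups did not overlap and the male groups did. In females it was 2.04-fold lower (-1.03 ± 0.21 SE in log2, limma adjusted p = 0.0049), a change that was under 2-fold without wild-type female array 3 (-0.95 in log2) or sesB1 female array 1 or 3 (-0.99 and -0.85) and that did not pass after quantile normalization (-0.16, adjusted p = 0.485 by limma). In males the log2 fold change was -0.47 (adjusted p = 0.416 by limma), and it was 0.05 without wild-type male array 2.

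Of the 81 genes, 44 lay in 14 groups of neighbouring P450 genes with at most 5 other genes between neighbours, by the order of the gene table, and 37 stood alone. Members of a group can share sequence, so a probeset may also bind the transcript of a near relative, which was not tested. The largest group, on chromosome arm 2R, ran from Cyp6a22 through Cyp6a17, Cyp6a23, Cyp6a19, Cyp6a9, Cyp6a20, Cyp6a21 and Cyp6a8 to Cyp317a1. Its log2 fold changes ran from -1.03 to 3.12 in females and from -0.70 to 3.70 in males, so that neighbours moved in opposite directions. Cyp6a17, which acts in temperature preference, fell in females (-0.58, adjusted p = 0.00211 by limma) and in males (-0.70, adjusted p = 0.000269 by limma) beside Cyp6a23, which rose in both. Cyp6a21 rose 2.42-fold in females (adjusted p = 0.000895 by limma) and 1.59-fold in males (adjusted p = 0.0223 by limma), and Cyp317a1 passed in neither sex (-0.09 and 0.11).

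Some other groups moved together and some did not. Both Cyp309a genes, both Cyp9b genes and both Cyp12a genes rose in both sexes, as given above. On 2R, Cyp4p1 and Cyp4p3 rose in both sexes (Cyp4p3 by 0.59 in females and 0.49 in males), and Cyp4p2, which lies in the same group, had a value of -0.21 in females and fell in males (-0.39, adjusted p = 0.0188 by limma). In the group of Cyp4d genes on X, Cyp4d2 rose 2.55-fold in females (adjusted p = 6.02e-05 by limma) and 1.45-fold in males (adjusted p = 0.000621 by limma), and Cyp4d1 rose 2.35-fold in females (adjusted p = 0.00163 by limma). In males Cyp4ae1, of the same group, fell (-0.30, adjusted p = 0.0134 by limma) while Cyp4d14 rose with Cyp4d2. On 2L, Cyp28d1 rose in males while its neighbours Cyp4ac1 and Cyp4ac2 fell (-0.39 and -0.80). In another group, on 3R, Cyp313a5, Cyp313a2 and Cyp313a3, passed in neither sex, with values from -0.16 to 0.14 in females and from -0.08 to -0.03 in males.

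**Figure D4:**
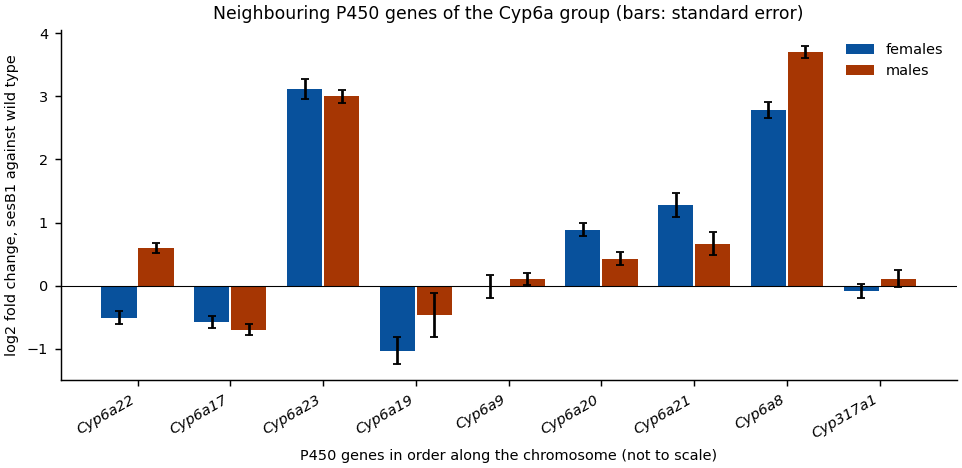
Log2 fold change of sesB1 against wild type in females and males for the 9 genes of the largest group of neighbouring P450 genes, drawn in their order along the arm and not to scale, with bars of 1 standard error. Cyp6a23 and Cyp6a8 rise to about 3 or more in both sexes while Cyp6a17, between Cyp6a22 and Cyp6a23, falls in both.

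Backcrossing can keep sequence of the original strain around the selected gene, so the members nearest to sesB were looked up. The nearest member in the gene table was Cyp4g15, 80 genes away, followed by Cyp28c1 at 125, Cyp311a1 at 157 and Cyp318a1 at 158. Cyp28c1 fell in males (-0.63, adjusted p = 0.00213 by limma), and the last pair passed in neither sex. Of 226 probesets within 100 genes of sesB, 8.41% passed 2-fold in females and 0.885% in males, against 5.48% and 2.12% of all probesets. The part of linked sequence in the values of Cyp4g15 was not tested.

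In wild-type flies P450 transcripts were more often lower in females than in males. At an adjusted p under 0.05 by limma, 44 of the 83 probesets were lower in females, compared with 24.4% of all probesets, and 13 were higher, compared with 37.2%. With at least 2-fold, 17 were lower (20.5%, against 14.1% of all probesets) and 6 higher (7.23%, against 18.1%). The median log2 difference, females minus males, was -0.35, against 0.15 over all probesets. After quantile normalization 39 were lower (27.7% of all probesets) and 14 higher (28%), and by 2-fold 16 were lower (14.8%) and 9 higher (16.8%). Of the 9 mitochondrial probesets, 8 were lower in females and 0 higher.

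Cyp312a1, of clan 4, was the most male-biased member. It stood at 3.71, 3.62 and 3.58 in wild-type males and at -2.70, -2.34 and -2.34 in wild-type females, a log2 difference of -6.10 (SE 0.12, limma adjusted p = 1.71e-10). In sesB1 males it stood at 2.19, 2.07, 1.91 and 2.08, below every wild-type male, and in sesB1 females at -2.39, -1.91, -2.60 and -2.00, overlapping the wild-type females. It was 2.98-fold lower in sesB1 than in wild-type males (-1.58 ± 0.08 SE in log2, limma adjusted p = 9.61e-07). After quantile normalization this change was -0.93 and still passed (adjusted p = 1.41e-05 by limma). In females it did not pass (0.24, adjusted p = 0.385 by limma), and the higher of the sesB1 female values are those of arrays 2 and 4, which held more transcripts typical of males. Without those arrays its female value was -0.03.

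Cyp4d21, known as sxe1 and needed for normal male mating, stood at 2.51, 2.59 and 2.45 in wild-type males and at -2.47, -2.80 and -2.20 in wild-type females, a log2 difference of -5.01 (adjusted p = 2.32e-09 by limma). In sesB1 flies it stood at 1.84, 2.01, 2.51 and 1.51 in males and at -1.86, -1.86, -2.35 and -1.51 in females. The genotypes overlapped in both sexes. Its log2 fold change in males was -0.55 (adjusted p = 0.0656 by limma) and in females 0.59 (adjusted p = 0.0493 by limma). The female call was lost without wild-type female array 1 or 2 or sesB1 female array 1, 2 or 4 (0.44 to 0.60) and after quantile normalization (0.40), and the male value passed without sesB1 male array 3 (-0.73). Without sesB1 female arrays 2 and 4 the female value was 0.38 and did not pass (adjusted p = 0.197 by limma).

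Cyp313a1, Cyp4ac1 and Cyp6w1 followed, with log2 differences between wild-type females and males of -2.88, -2.47 and -1.89 (adjusted p = 4.2e-09, 7.84e-08 and 1.17e-06 by limma). The most female-biased members were Cyp6a19 at 5.46, Cyp6v1 at 2.49, Cyp6a22 at 1.81 and Cyp18a1 at 1.64 and 1.57 (adjusted p from 1.56e-08 to 1.74e-06 by limma). Cyp6v1 fell in sesB1 females (-0.70, adjusted p = 0.000425 by limma) but had a value of -0.09 that did not pass after quantile normalization (adjusted p = 0.603 by limma). In sesB1 males it fell by less (-0.25, adjusted p = 0.0309 by limma), and of the single arrays only sesB1 male array 4 could be left out without losing that call. The other omissions gave values from -0.28 to -0.23, with -0.23 without wild-type male array 2.

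In sesB1 flies fewer P450 transcripts differed between the sexes by 2-fold, as did fewer of all probesets. Of all probesets, 14.1% were 2-fold lower and 18.1% were 2-fold higher in wild-type females. In sesB1 flies 9 of the 83 were at least 2-fold lower in females, against 10.8% of all probesets, and 2, Cyp6a19 and Cyp6v1, were at least 2-fold higher, against 12.1%. With no fold threshold, 29 were lower, against 21.3% of all probesets, and 14 higher, against 43.6%. After quantile normalization 31 were lower (26.9% of all probesets) and 9 higher (27.3%), and by 2-fold 8 were lower (10.8%) and the same 2 genes were higher (11.9%). As deposited, the median log2 difference was -0.01, against 0.17 over all probesets. After quantile normalization it was -0.18, against 0.0082 over all probesets. Of the 44 probesets lower in wild-type females, 25 were also lower in sesB1 females, 18 did not pass and 1, Cyp4d1, was higher in sesB1 females. Of the 13 that were higher, 11 were higher in both genotypes. Differences between the genotypes in their sex comparison are the same contrast as the interaction of sex and genotype, which is tested next.

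**Figure D5:**
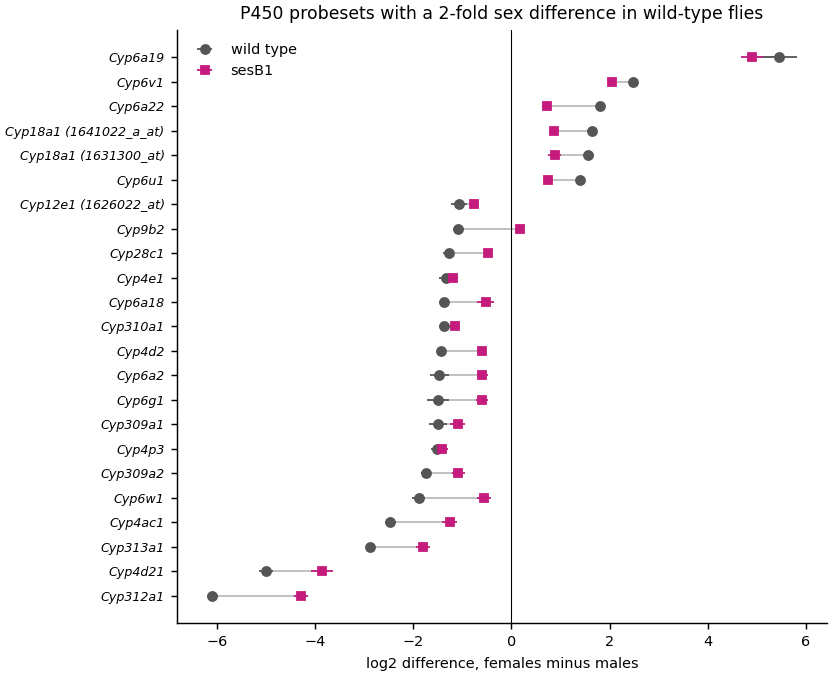
Log2 difference between females and males for the 23 P450 probesets that differed at least 2-fold between the sexes in wild-type flies, in wild type (circles) and in sesB1 (squares), with bars of 1 standard error. Values to the left of 0 are higher in males, and the sesB1 value of Cyp312a1 is -4.29 against -6.10 in wild type.

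The interaction of sex and genotype, fitted on all 14 arrays, asks whether the log2 fold change of sesB1 differed between females and males. With the values as deposited, 27 of the 83 probesets were more positive in females, against 11.6% of all probesets, and 8 were more negative, against 16%. This balance depended on the scaling. After quantile normalization, which gives the centred values of all arrays the same distribution, 4 were more positive, against 3.91% of all probesets, and 8 more negative, against 5.58%. Passing both ways were 10 probesets, of which 4 were more positive in females both ways and 5 more negative both ways, and Cyp28a5 passed in opposite directions (1.01 as deposited and -0.64 after quantile normalization).

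The 4 that were more positive in females both ways were Cyp312a1, Cyp6w1, Cyp4ac1 and Cyp4ac2. For Cyp312a1 the interaction was 1.81 (SE 0.21, limma adjusted p = 4.04e-05) and 1.53 after quantile normalization (adjusted p = 1.55e-05 by limma), and as deposited it was 1.54 without sesB1 female arrays 2 and 4 (adjusted p = 3.2e-05 by limma). Cyp6w1 stood at 1.07, 1.03 and 0.97 in wild-type males and 0.40, 0.19, 0.01 and 0.22 in sesB1 males, and in females at -1.05, -0.55 and -0.99 and at -0.59, -0.17, -0.01 and -0.60. The male groups were apart and the female groups overlapped. Its interaction was 1.34 (adjusted p = 0.000455 by limma) and 0.67 after quantile normalization (adjusted p = 0.036 by limma). Cyp4ac1 and Cyp4ac2, neighbours on 2L, had interactions of 1.21 and 0.99 (adjusted p = 0.00137 and 0.0021 by limma). After quantile normalization these were 0.59 and 0.87 (adjusted p = 0.0274 and 0.0292 by limma). In males they fell by 0.39 and 0.80 on the log2 scale.

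The 5 that were more negative in females both ways were Cyp6a22, Cyp6u1, Cyp6a8, Cyp4aa1 and Cyp4e2. Cyp6a22 stood at 0.95, 0.88 and 0.74 in wild-type females and 0.24, 0.47, 0.22 and 0.48 in sesB1 females, and in males at -0.96, -0.94 and -0.96 and at -0.22, -0.43, -0.49 and -0.32. It fell in females and rose in males with no overlap in either sex. Its log2 fold changes were -0.51 in females (adjusted p = 0.00393 by limma) and 0.59 in males (adjusted p = 0.000466 by limma), and the interaction was -1.10 (adjusted p = 4.31e-05 by limma) and -1.32 after quantile normalization (adjusted p = 0.000849 by limma). The female fall itself did not pass after quantile normalization (-0.29, adjusted p = 0.184 by limma). The greater rise of Cyp6a8 in males gave an interaction of -0.92 (adjusted p = 0.00111 by limma) and of -2.91 after quantile normalization (adjusted p = 0.000622 by limma). For Cyp6u1, Cyp4aa1 and Cyp4e2 the interaction was -0.67, -0.53 and -0.40, and after quantile normalization -0.47, -0.74 and -0.51.

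Of the 5 members with the smallest interaction p, Cyp9b2 and Cyp12a5 passed only as deposited. The interaction of Cyp9b2 was 1.25 (adjusted p = 3.85e-05 by limma) and 0.02 after quantile normalization (adjusted p = 0.964 by limma), and that of Cyp12a5 was 0.67 (adjusted p = 0.00034 by limma) and 0.16 (adjusted p = 0.335 by limma). Both rose in each sex under either scaling. The opposite calls of Cyp313a1 in the 2 sexes, of 0.68 in females (adjusted p = 0.00484 by limma) and -0.40 in males (adjusted p = 0.0263 by limma), were not kept after quantile normalization (0.37 and -0.19). The male call was lost when any array other than sesB1 male array 3 was left out (-0.42 to -0.33). The female rise of Cyp4ac1 (0.82 in log2, limma adjusted p = 0.0115) no longer passed without wild-type female array 1 (0.71, adjusted p = 0.0556 by limma) or after quantile normalization (0.53, adjusted p = 0.0893 by limma).

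Genes that act with P450 enzymes were counted from lists of redox partners, ecdysone synthesis and regulators. Of 9 redox partners, 6 had a probeset of their own, and Cpr, the reductase for microsomal P450 enzymes, and dare, the reductase for mitochondrial ones, were not among them. In each sex 4 rose and 1 fell, and their median log2 fold change was 0.33 in females and 0.41 in males. Of all probesets, 13.4% rose and 18.9% fell in females, and 11.1% and 10.8% in males. The ferredoxin gene Fdx1 rose in females (0.33, adjusted p = 0.0109 by limma) and in males (0.53, adjusted p = 0.00306 by limma). Fdx2 had a value of 0.03 in females and rose in males (0.29, adjusted p = 0.015 by limma). The gene of cytochrome b5, Cyt-b5, rose in females (0.33, adjusted p = 0.0117 by limma) and had a value of 0.06 in males. Cyt-b5-r, a relative of cytochrome b5, rose in both sexes (0.96 in females and 1.18 in males, adjusted p = 0.0051 and 5.58e-06 by limma), as did CG3566 (0.38 and 0.59). CG6870, a predicted cytochrome b5, fell in both (-1.90 and -0.82, adjusted p = 0.000231 and 0.000869 by limma).

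Of 8 genes of ecdysone synthesis, 7 were measured. The only one that passed was sro, in females (0.42, adjusted p = 0.017 by limma), where 13.4% of all probesets were higher. The P450 genes of this pathway, spo, spok, dib, sad and shd, have symbols of their own and so lie outside the family as defined here, and they had values from -0.05 to 0.37 in females and from -0.22 to 0.05 in males. Of 10 regulators of responses to foreign compounds or hormones, 0 were higher and 2 lower in females, the nuclear receptor genes Hr96 (-0.63, adjusted p = 0.00344 by limma) and usp (-0.44, adjusted p = 0.03 by limma). The 2 lower are close to the share of 18.9% of all probesets that were lower in females. In males maf-S, a partner of the stress regulator cnc, was higher (0.26, adjusted p = 0.0198 by limma) and 0 were lower, against 11.1% and 10.8% of all probesets. cnc and Keap1 passed in neither sex (0.01 and 0.20 in females, -0.04 and 0.10 in males).

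Markers of tissues that express P450 genes were also counted. Of all probesets, 13.4% were higher and 18.9% lower in sesB1 females, and 11.1% higher and 10.8% lower in sesB1 males. Of 12 midgut genes, 8 were higher and 1 lower in sesB1 females, and 1 was higher and 6 lower in sesB1 males. The median of the midgut list over its genes ran from -0.25 to 0.03 in wild-type females and from 0.44 to 0.67 in sesB1 females, and in males from -0.14 to 0.04 and from -0.43 to -0.15. Of 9 Malpighian tubule genes, 4 were higher and 1 lower in females (array medians from -0.18 to 0.04 and from 0.08 to 0.24), and 0 were higher and 2 lower in males (from -0.01 to 0.03 and from -0.16 to -0.04). The 3 measured genes of the larval fat body were higher in both sexes. Their array medians ran from -6.24 to -5.73 in wild-type and from 0.70 to 0.99 in sesB1 females, and in males from -6.17 to -4.66 and from -0.16 to 0.74.

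Markers of the reproductive organs were counted against the same shares. Of 13 genes of ovary and eggshell, 3 were higher and 7 lower in sesB1 females, with array medians from 2.44 to 2.71 in wild-type and from 0.97 to 2.72 in sesB1 females, the lowest being array 3. The 433 probesets typical of females, chosen by their wild-type values, were lower in every sesB1 female array. Their array medians ran from 2.204 to 2.315 in wild-type and from 1.064 to 1.674 in sesB1 females. The choice used these same wild-type female arrays, which favours high values there, so the difference is a description and tests no fall. By the paper, ovaries of sesB1 females were typically smaller than normal at 2 days. Of 11 testis genes, 0 were higher and 7 lower in sesB1 males, with array medians from 2.50 to 2.56 and from 2.19 to 2.31. Whether a marker is at the background level cannot be read from centred values. The part of these tissues in the P450 values was not tested.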

How the data were processed

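Gene expression of sesB1 and wild-type flies was measured in whole-fly RNA on 14 arrays. Genespring GX was the software with which the authors normalized the raw data, by the methods, with its version and summarisation not given in the sources used here. What was deposited is a table of log2 signals, entered as scores because 30 of 265328 cells hold spreadsheet date serials, which were treated as missing. None of these cells belongs to a P450 probeset. The values had a median of 0 over the arrays for each probeset. The unmapped value columns numbered 0.

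Of 18952 probesets, 183 controls were left out. Each comparison was fitted to the arrays of its groups by lmFit and eBayes of limma (version 3.58.1, under R 4.3.3), with Benjamini-Hochberg adjustment across the 18769 probesets left, and thresholds of 0.05 and, where stated, 2-fold. The interaction used all 14 arrays. For listed genes the first probeset was used. Clans followed family numbers. Positions were taken as arm and order from a RefSeq gene table, in which 81 of 81 members were found. Fits were tested on simulated data. Tables and plots used Python 3.11.15, pandas 2.3.3, numpy 2.4.6, scipy 1.17.1 and matplotlib 3.10.9.

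The members, lists and tests were chosen with earlier results of these data known. Values in every array were given for members changed 2-fold in either sex, at most the 10 highest and 10 lowest in each. Also named were the 5 largest sex differences in each direction, the 5 smallest interaction p-values, the mitochondrial clan, genes of the lists and neighbouring members. Other members were named after their values were seen. The labels call the arrays biological replicates, each of a pool, and p-values measure the spread between these. The number of arrays limits the precision. Alternatives were quantile normalization, median centring, a joint fit, a replicate block, array weights, the methods' t-test, other fold thresholds, the first probeset of each gene and the omission of arrays. Quantile normalization of all 14 arrays was chosen after the data were seen.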

Additional observations from a re-analysis of the deposited data

Results flagged for a closer look

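The change of sesB1 against wild type differed between the sexes, by the interaction test of limma on the values as deposited, for 22 of the 40 P450 probesets named by rule. That rule took in the 5 smallest interaction p-values, so this count is no measure of the family. Of all 83 members 35 passed, and of all probesets 27.6%. The log2 difference, females minus males, was positive for Cyp312a1 (1.81), Cyp6w1 (1.34), Cyp9b2 (1.25), Cyp4ac1 (1.21), Cyp4d21 (1.14), Cyp313a1 (1.08), Cyp12c1 (1.05), Cyp28a5 (1.01), Cyp6g1 (0.89), Cyp6a2 (0.88) and Cyp6a18 (0.85). Smaller positive differences were those of Cyp12a4 (0.81), Cyp12a5 (0.67), Cyp309a2 (0.66), Cyp6a20 (0.46), Cyp12b2 (0.42) and Cyp4g1 (0.32). It was negative for Cyp6a22 (-1.10), Cyp6a8 (-0.92), both probesets of Cyp18a1 (-0.77 and -0.69) and Cyp6v1 (-0.44). Of these, Cyp312a1, Cyp6w1, Cyp4ac1, Cyp6a22 and Cyp6a8 passed in the same direction after quantile normalization. The Cyp6a20 difference was lost in 14 of 21 alternatives, among them the omission of wild-type male array 2 (0.41, limma adjusted p = 0.1). That of Cyp309a2 was lost without wild-type male array 3 or wild-type female array 1 (0.61 and 0.57), and that of Cyp6g1 without wild-type male array 1 or wild-type female array 1 or 3 (0.70 to 0.85).

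An outlier rule flagged a single array against the other 3 of its group for 3 probesets, among 80 groups of 4 arrays examined, where chance flags about 1 in 20. Cyp6a18 was 0.70 in sesB1 female array 3, against -0.09 to -0.04 in the others. Cyp6a20 was 0.01 in sesB1 male array 2, against 0.38 to 0.43. One probeset of Cyp12e1 was 0.46 in sesB1 male array 2, against 0.53 to 0.54, a small gap in a group with an SD of 0.03.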

How the results depend on the processing

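Of the 21 P450 probesets at least 2-fold higher in sesB1 females, 17 were kept after quantile normalization of the female arrays. After quantile normalization of all 14 arrays, chosen after the data were seen, 9 were kept among 10 that were at least 2-fold higher. The number at least 2-fold lower was 0, and the median was 0.26. All 10 in males were kept under both. By 2-fold, the number lower in males was 1, Cyp6a2, after quantile normalization of the male arrays. With array weights the number at least 2-fold lower in females was 0. With a 1.5-fold threshold 35 were higher and 6 lower in females (7.47% and 8.72% of all probesets) and 26 and 6 in males (4.07% and 2.5%). With no fold threshold the numbers were 45 and 9 in females and 37 and 14 in males. Between wild-type sexes 29 were lower at 1.5-fold (19.2% of all probesets), 44 were lower and 13 higher with no fold threshold, and the median was -0.49 with arrays centred on their medians. Between sesB1 sexes 20 were lower and 9 higher at 1.5-fold (14.1% and 21% of all probesets), and 29 and 14 with no fold threshold. After quantile normalization of all arrays 9 were higher with no fold threshold. Of these, 4 (Cyp304a1, Cyp6v1, Cyp6a19 and Cyp4ae1) were at least 2-fold higher, against 2579 of all 18769 probesets. The median was -0.18 and -0.21 after quantile normalization of the groups and of all arrays and -0.17 after centring.

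After quantile normalization 4 interactions were more positive in females and the median was 0.02. The interaction changed sign there for Cyp12c1 (-0.25), Cyp28a5 (-0.64), Cyp4p1 (-0.68), Cyp6a23 (-1.98) and Cyp6v1 (0.47), and the female value of Cyp12b2 was -0.03, or -0.02 with all arrays. The cause was not tested.

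When 1 array at a time was left out, the number at least 2-fold higher in females ran from 19 to 24. The number at least 2-fold lower ran from 0 to 1, with a median from 0.35 to 0.47. In males 10 to 12 were at least 2-fold higher, 2 stayed at least 2-fold lower, and the median ran from 0.13 to 0.24. For the interaction, with no fold threshold, 22 to 27 were more positive and 7 to 9 more negative (median 0.13 to 0.25). Between wild-type sexes 16 to 18 were at least 2-fold lower and 6 at least 2-fold higher (median -0.45 to -0.34). Between sesB1 sexes 8 to 11 were at least 2-fold lower and 2 to 3 at least 2-fold higher (median -0.07 to 0.03).

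Replicate numbers gave no sign of pairing: the same-number correlations of deviations were 0.09, -0.115 and -0.146 in females and -0.164, -0.174 and 0.046 in males. These lay within the range of the different-number pairs, -0.202 to 0.195 in females and -0.311 to 0.269 in males. With the number as a replicate block, 24 probesets were at least 2-fold higher in females and 11 in males, and 1 and 2 were lower. Signal over background is not known from centred values, so it is not known which members were near background.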
